A study of Homo sapiens with 8 samples.

Results

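Chromatin accessibility was examined at 10 genes that control the passage of a cell through G1. They were the transcription factor genes E2F2 and E2F3, the D-type cyclin genes CCND1, CCND2 and CCND3, the kinase genes CDK4 and CDK6, and the inhibitor genes CDKN1A, CDKN1B and CDKN2C. A peak was assigned to a gene if its summit lay in the gene body or within 50 kb of one of its annotated start sites (GENCODE, GRCh37). By this rule, 69 of the 43654 accessible regions belonged to the 10 genes, made from 244 of the 126449 peaks in 4 lists.

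HUDEP-2 is an erythroid progenitor line established from human cord blood. Accessibility was measured by ATAC-seq, in which a transposase inserts adapters into open DNA. All cells in the 4 lists carried the control guide sgControl, had been expanded with dexamethasone, stem cell factor, EPO and doxycycline, and were then starved for 5 h in StemSpan SFEM with penicillin/streptomycin and bovine serum albumin. For 1 h, 2 samples then received 50 ng/ml of stem cell factor (SCF), which binds the receptor Kit, and 2 samples received phosphate-buffered saline (PBS), with 50000 cells per library. The comparison asks which sites at these genes differ in accessibility after acute Kit activation. The starved PBS cells had thus been exposed to SCF during expansion, and the 4 samples with the guide sgEGR1 were not analysed here.

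D-type cyclins bind CDK4 or CDK6 and are the cyclins through which growth factors act on the cell cycle. The active kinases phosphorylate the retinoblastoma protein, which releases E2F factors to transcribe genes for DNA replication, while the proteins encoded by CDKN1A, CDKN1B and CDKN2C restrain the kinases. Erythroid progenitors divide rapidly under Kit signaling and leave the cycle as they mature. In red cell precursors, cyclin D3 is known to set the number of divisions, and E2F2 is a known regulator of terminal maturation.

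The lists held 29269 to 33616 peaks each. Both SCF libraries were shallower than the PBS libraries, at 0.883 and 0.843 times the recovered depth of PBS replicate 1, and PBS replicate 2 was deeper at 1.42 times. Promoters of 7 of 10 erythroid markers, including GATA1, KLF1, TAL1 and KIT, were open in all 4 libraries, whereas the fetal globin genes HBG1 and HBG2, near-identical copies whose reads may not be told apart, had no promoter peak and ALAS2 had one in 1 library. Of markers of other cells, 1 of 4 megakaryocyte (ITGA2B), 4 of 6 myeloid (SPI1, CEBPA, CEBPE and CSF1R) and 1 of 2 epithelial genes (EPCAM) were open in all 4. An open promoter does not show that the gene is transcribed, and the part of other cell types in the results was not tested.

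Each peak carries a fold enrichment, whose values fitted the fragment pileup at the summit plus 1 over the local background plus 1. The added 1 lowers the ratio most at sites with few fragments. Within each library, peaks were ranked by fold enrichment on a percentile scale, common to the lists, on which 100 is the highest. Ranks still depend on the peaks that each list holds. Over all regions called in all 4 libraries, the median ranks were 62.7 and 66.3 with PBS and 61.6 and 65.9 with SCF. A region was described as a rank gain if it was called in all 4 libraries and its lower SCF rank lay at least 10 points above its higher PBS rank, and as a rank loss in the opposite case. Sites are named by gene and by the distance of the summit from the nearest start site of that gene, negative values lying upstream. A promoter is a site within 1 kb of a start site.

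The sequences around 8 summits are shown because they are the 6 intronic sites with a rank gain or loss, the highest-ranked intronic site, and the only site with an E2F word. They are from GRCh37, plus strand, 5′ to 3′. Capitals mark the words searched within 100 bp of each summit on both strands, which were TGANTCA for AP-1, AGATAA or TGATAA for GATA, TTTCCCGC or TTTGGCGC for E2F, CACGTG for the E-box bound by MYC, GCGTGGG for EGR and TGACGTCA for the cAMP response element. For the E2F2 promoter only the bases upstream of the first exon are shown.
E2F3 intron at 6.2 kb, chr6:20409963-20410163: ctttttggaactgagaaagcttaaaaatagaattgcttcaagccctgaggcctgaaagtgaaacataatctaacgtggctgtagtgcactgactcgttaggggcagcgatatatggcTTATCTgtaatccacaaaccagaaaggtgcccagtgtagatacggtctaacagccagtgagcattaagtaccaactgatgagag
E2F3 intron at 41.1 kb, chr6:20444951-20445151: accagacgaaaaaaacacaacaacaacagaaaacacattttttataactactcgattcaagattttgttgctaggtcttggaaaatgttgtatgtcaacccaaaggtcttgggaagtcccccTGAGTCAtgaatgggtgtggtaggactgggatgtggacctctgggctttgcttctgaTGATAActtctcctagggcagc
E2F3 intron at 54.7 kb, chr6:20458539-20458739: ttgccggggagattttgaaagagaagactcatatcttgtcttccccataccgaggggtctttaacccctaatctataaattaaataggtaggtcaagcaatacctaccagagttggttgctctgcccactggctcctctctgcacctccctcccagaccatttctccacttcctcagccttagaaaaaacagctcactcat
CCND3 intron at 38.0 kb, chr6:41978123-41978323: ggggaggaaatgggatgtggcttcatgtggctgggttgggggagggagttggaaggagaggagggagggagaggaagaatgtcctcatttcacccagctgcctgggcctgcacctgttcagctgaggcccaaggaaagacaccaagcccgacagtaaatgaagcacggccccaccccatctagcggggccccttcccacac
E2F2 intron at 5.1 kb, chr1:23840706-23840906: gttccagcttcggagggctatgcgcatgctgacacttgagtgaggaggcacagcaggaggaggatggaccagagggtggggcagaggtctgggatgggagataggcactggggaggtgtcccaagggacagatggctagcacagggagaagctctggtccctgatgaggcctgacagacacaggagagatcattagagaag
CDKN1B intron at 7.6 kb, chr12:12857614-12857814: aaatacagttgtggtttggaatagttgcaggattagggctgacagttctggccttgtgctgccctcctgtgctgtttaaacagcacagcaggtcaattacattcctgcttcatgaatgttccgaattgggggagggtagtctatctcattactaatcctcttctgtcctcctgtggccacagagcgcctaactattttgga
CCND3 intron at 31.2 kb, chr6:41984952-41985152: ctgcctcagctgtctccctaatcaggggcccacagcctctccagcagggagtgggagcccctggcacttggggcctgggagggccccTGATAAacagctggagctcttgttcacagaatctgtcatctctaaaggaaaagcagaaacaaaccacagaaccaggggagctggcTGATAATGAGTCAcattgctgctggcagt
E2F2 promoter, chr1:23857726-23857788: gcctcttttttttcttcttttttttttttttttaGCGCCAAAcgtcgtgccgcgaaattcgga

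GATA was the most frequent of the words in the 69 regions, as it was in all regions. GATA words, the sequence bound by the erythroid factor GATA1, lay in 18 of the 69 regions (26.1%), against 25.9% of all regions of the same length. AP-1 words lay in 4 regions (5.80%, against 8.69%), E-boxes in 7 (10.1%, against 4.68%), EGR words in 3 (4.35%, against 3.86%) and the cAMP response element in 0 (0.716% of all regions). Among the 17 sites in introns of the 10 genes, 9 held GATA (52.9%, against 40.2% of all intronic regions) and 3 held AP-1 (17.6%, against 12.1%). Of the 20 regions at their own promoters, 4 held an E-box (20%, against 5.85% of all promoter regions), at CCND1, CDK4, CDKN2C and E2F3. In the sequences above, a GATA word lay directly beside an AP-1 word in the CCND3 site at 31.2 kb without overlapping it, and the sites at 54.7 kb in E2F3, 38.0 kb in CCND3, 5.1 kb in E2F2 and 7.6 kb in CDKN1B held none of the words. These matches are descriptions of letters and do not show binding.

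Most sites at the 10 genes were called in every library, and none separated the treatments by its calls. Of the 69 regions, 51 (73.9%) were called in all 4 libraries, compared with 51.3% of all regions. The share depends on the class of site. It was 85.3% for the 34 promoter regions at these loci, against 74.9% of all promoter regions. For the 17 sites in introns of the 10 genes it was 76.5%, against 34.5% of all intronic regions. Calls in both libraries of one treatment and neither of the other were found at 0 of 69 sites for SCF (1.65% of all regions) and at 0 of 69 for PBS (2.37%). The PBS libraries called 57 and 61 of the regions and the SCF libraries 60 and 63. Of the 18 regions missing from at least 1 library, 7 were called in 1 library, 3 in 2 and 8 in 3. With the looser condition that 1 left-out library allows, 2 to 4 regions were called with SCF alone, the most without PBS replicate 2. With PBS alone there were 0 to 3, the most without PBS replicate 1. The shares of all regions under this looser condition are not given here. Absence of a call means that no peak passed the threshold of that library at its depth. In bulk libraries, more cells with an open site and a more open site in each cell cannot be told apart.

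The regions that met the criterion for a rank gain or loss lay in introns of E2F3, CCND3, E2F2 and CDKN1B. Among the 51 regions called in all 4 libraries, 4 were rank gains and 2 were rank losses, where 2.55% and 3.04% of all 22398 such regions were. All 6 lay in introns of the genes themselves, as 4 gains and 2 losses among 13 regions, while 4.81% of all intronic regions were gains and 3.98% losses. The 4 gains were in E2F3 (3 sites) and CCND3, and the losses in E2F2 and CDKN1B. None of the 29 promoter regions at these loci, own promoters and those of neighbouring genes, was a gain or a loss (1.19% and 2.23% of all promoter regions). Leaving out 1 library makes the criterion easier to meet for every region. There were then 7 gains and 4 losses without PBS replicate 2, and 8 and 4 without SCF replicate 1. The shares of all regions under these settings are not given here, so these counts cannot be set beside the shares above. With the looser condition that both SCF ranks exceed both PBS ranks, 13 of 51 regions qualified (16% of all), and 9 had both PBS ranks above (19.3% of all).

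No single region passed the test across all regions. A limma fit of log2 fold enrichment, quantile normalized between libraries, called 0 of 22398 regions at an adjusted p under 0.05 (0% of regions called), and the lowest adjusted p was 0.705. At an unadjusted limma p under 0.05 there were 1519 regions in all (6.78%) and 7 of the 51 (13.7%). All 7 were among the 13 regions in introns of the 10 genes. Such a p was found for 10.7% of all intronic regions and 3.98% of all promoter regions. In simulated data of the same size the fit recovered 13.5% of 1.5-fold, 90.0% of 2-fold and 99.5% of 4-fold differences. Differences of 1.5-fold were thus mostly not detectable even there. Every simulated region was given the same pooled spread, so these shares need not hold for sites with few fragments. For a single region, 2 against 2 libraries cannot give a two-sided exact permutation p below 0.333. The rank differences below are therefore given as values per library.

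**Figure D1:**
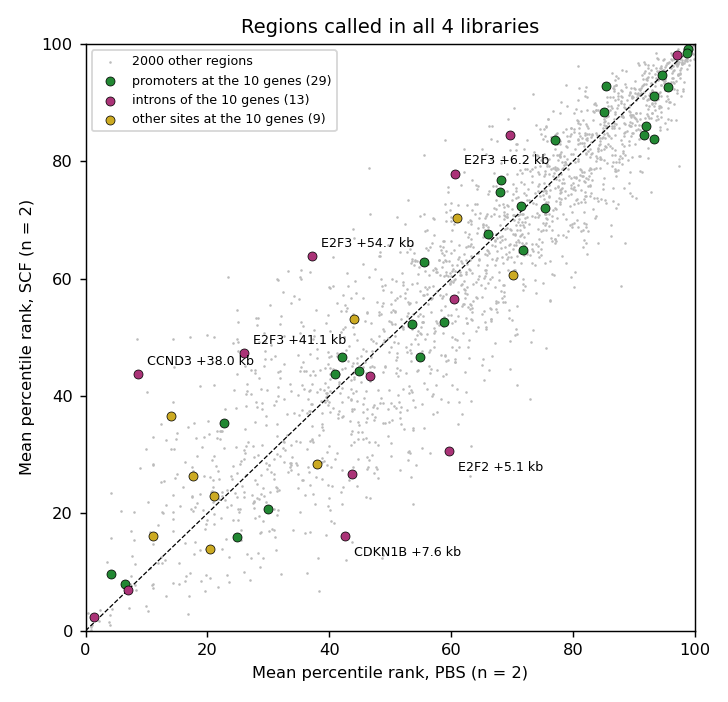
Mean percentile rank of fold enrichment in PBS (horizontal axis) and SCF libraries (vertical axis, n = 2 each) for regions called in all 4 libraries. Grey points are a sample of 2000 other regions, coloured points the 51 regions at the 10 genes, and the dashed line marks equal ranks. The 6 labelled intronic sites are those whose treatments lie at least 10 points apart in rank, with E2F3 and CCND3 above the line and E2F2 and CDKN1B below.

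The median rank difference of the promoters was smaller than the spread between replicate libraries. The median difference in rank, SCF minus PBS, was 0.140 points over the 29 promoter regions, against −0.759 over all promoter regions. The SD between the medians of replicate libraries was 2.35 points. Over the 13 sites in introns of the 10 genes the median difference was 0.886 points, against 0.252 over all intronic regions and an SD between replicate medians of 3.79. These introns included sites with higher SCF ranks in E2F3 and CCND3 and sites with lower SCF ranks in E2F2 and CDKN1B. Promoter differences spanned −9.49 to 12.7 points and intronic differences −28.9 to 35.1 points.

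**Figure D2:**
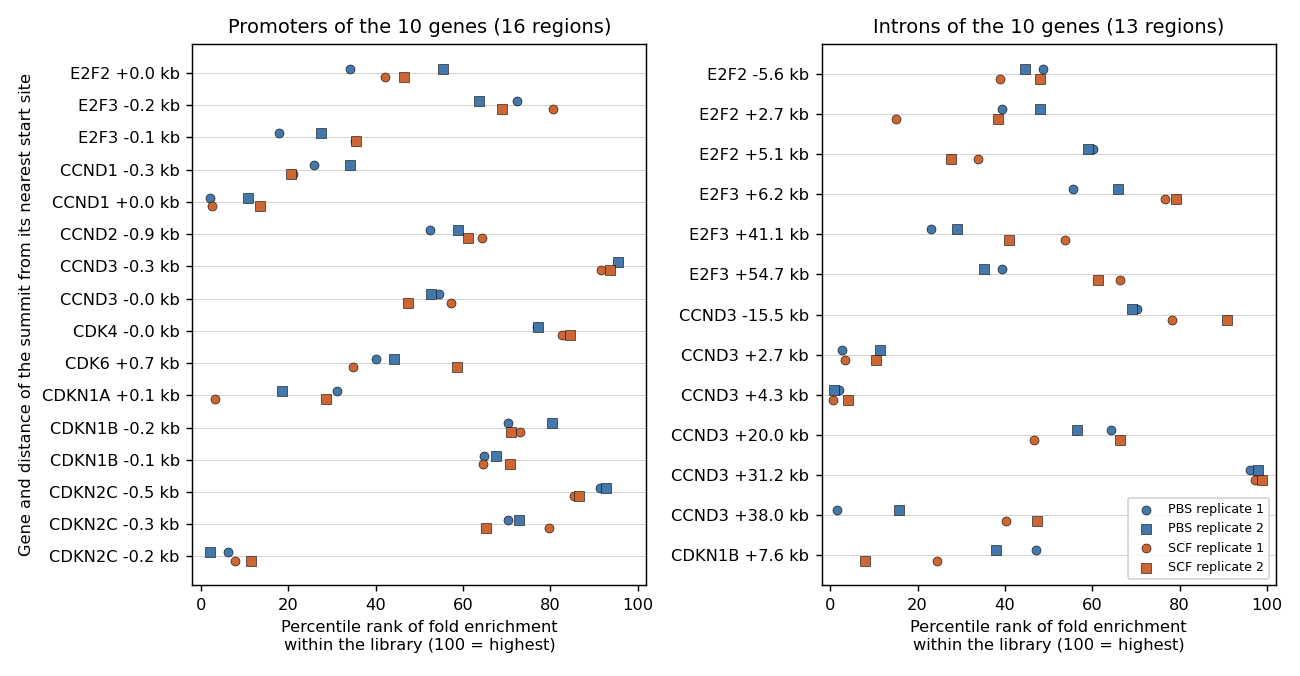
Percentile rank of fold enrichment in each of the 4 libraries for the 16 own promoters (left) and 13 own introns (right) called in all 4, with the distance from the nearest start site beside the gene name. Blue marks PBS and orange SCF, circles replicate 1 and squares replicate 2. Blue and orange intermingle at most promoters, and they are apart by 10 points or more at the 3 E2F3 introns, at CCND3 +38.0 kb, at E2F2 +5.1 kb and at CDKN1B +7.6 kb.

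E2F3 encodes an activator E2F that binds the promoters of replication genes as the retinoblastoma protein is phosphorylated. The gene (ENSG00000112242.16_10, chromosome 6, 20402110 to 20493945, plus strand) had 8 regions, and all 5 that were called in all 4 libraries had a higher mean rank with SCF, as did 10399 of all 22398 such regions. In 4 of these 5, both SCF ranks lay above both PBS ranks, against 16% of all. The 3 intronic regions called in all 4 libraries were all rank gains. E2F3 is among the genes at which the study places Kit-responsive elements, so it was not chosen independently of the study's results.

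The E2F3 intronic site at 54.7 kb (chromosome 6, 20458368 to 20459079) had ranks of 39.3 and 35.2 with PBS and 66.4 and 61.3 with SCF. The groups did not overlap, and the lowest SCF rank lay 22.02 points above the highest PBS rank. Its summit pileup was 17 and 22 fragments with PBS and 24 and 29 with SCF, although the SCF libraries were shallower. The 95% Poisson intervals of these counts all overlapped, from 9.9 to 27.2 for the lowest to 19.4 to 41.6 for the highest. The counts in these intervals were not scaled to the depth of the libraries, so their overlap does not compare the treatments at equal depth. Its local background was 0.632 and 0.735 times the library median with PBS and 0.563 and 0.918 times with SCF. The mean rank was 37.2 ± 2.87 with PBS and 63.9 ± 3.64 with SCF (SD, n = 2), and log2 fold enrichment was higher by 0.60 ± 0.16 (SE, limma adjusted p = 0.705). When sites were ranked by pileup in place of fold enrichment, both SCF ranks still lay above both PBS ranks, by 7.37 points, which was short of the gap required.

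The site at 6.2 kb (20409749 to 20410536) was the strongest intronic site of E2F3. Its ranks were 55.6 and 65.8 with PBS and 76.7 and 79.1 with SCF, and all SCF values were again the higher ones. Its pileups of 36 and 57 with PBS and 44 and 52 with SCF overlapped as raw counts, not scaled to depth. Median pileups over regions called in all 4 libraries were 35 and 47 with PBS and 33 and 33 with SCF. With pileup in place of fold enrichment, the limma fit gave a log2 difference of 0.38 at this site and called 0 regions. Fold enrichment was 7.79 and 8.73 with PBS and 11.1 and 10.8 with SCF, a log2 difference of 0.42 ± 0.14 (SE, limma adjusted p = 0.705). By pileup ranks the groups overlapped, and by ranks of −log10 p the gap narrowed to 1.83 points. The rank gain at this site was thus found with fold enrichment and not with the other measures.

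The site at 41.1 kb (20444833 to 20445427) held a GATA word and the only AP-1 word of the E2F3 introns. Its ranks were 23.0 and 29.0 with PBS and 53.7 and 40.8 with SCF, and the groups lay 11.8 points apart. Pileups were low, 9 and 12 fragments with PBS and 15 and 12 with SCF, and the 95% Poisson intervals of these counts all overlapped, from 4.12 to 17.1 for the lowest to 8.40 to 24.7 for the highest. The log2 difference was 0.44 ± 0.18 (SE, limma adjusted p = 0.720). PBS replicate 1 had no call there at a −log10 q of 5 or more. Such intervals, at this and the other sites, cover counting error only and are of counts not scaled to library depth. The other 3 intronic sites of E2F3 were not called throughout: the site at 20.9 kb was called in PBS replicate 1 and SCF replicate 2 (ranks 12.0 and 22.1), that at 50.7 kb in both replicate 2 libraries (29.0 with PBS and 36.5 with SCF), and that at 60.7 kb in PBS replicate 2 alone (20.1).

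E2F3 has 2 promoters, each with a region called in all 4 libraries. The region at the first start site (20401451 to 20402483) had ranks of 72.3 and 63.6 with PBS and 80.7 and 68.8 with SCF, which overlapped. The region at the second (20403124 to 20404139), from which a shorter form of the protein is made, had ranks of 17.8 and 27.5 with PBS and 35.2 and 35.5 with SCF. It was the largest difference among the promoters, with 12.7 points between the means and 7.66 points between the nearest libraries (limma adjusted p = 0.786). Both regions had high pileups, 180 to 249 fragments at the first and 103 to 143 at the second, on a local background of 6.34 to 7.18 times the library median.

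**Figure D3:**
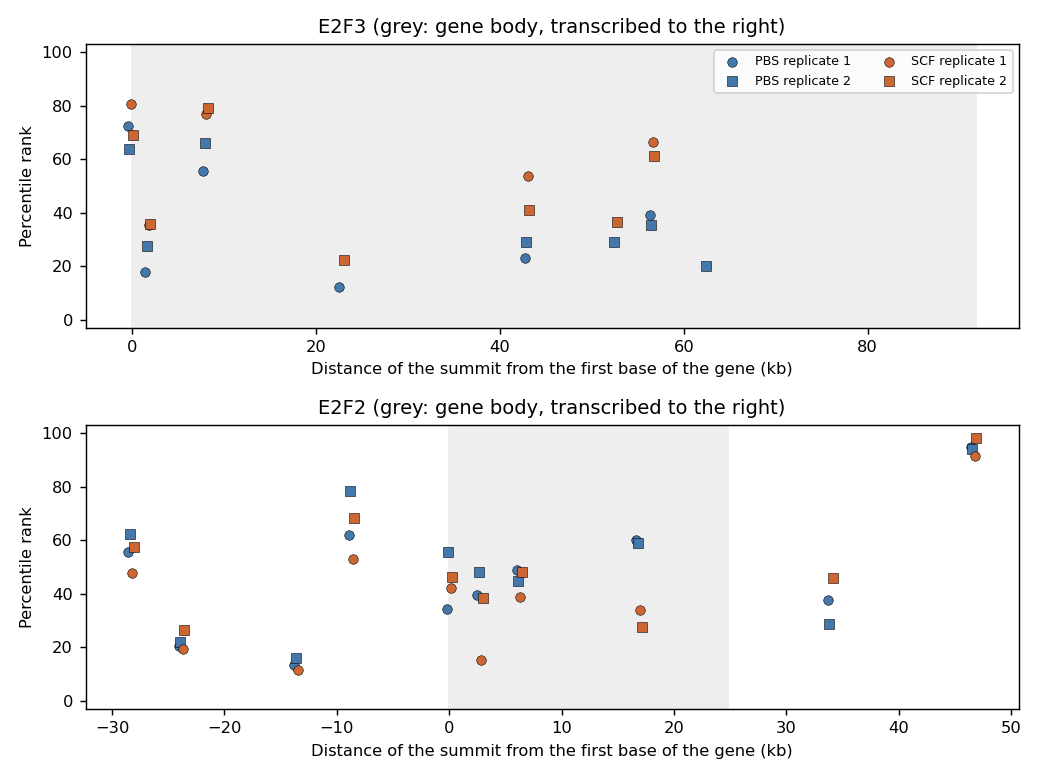
Percentile rank of every region at E2F3 (top) and E2F2 (bottom) in each library against the distance of its summit from the first base of the gene in kb, with the gene body in grey and libraries offset slightly sideways. Blue marks PBS, orange SCF, circles replicate 1 and squares replicate 2, and a missing symbol means that no peak was called. SCF symbols lie above PBS symbols at the 3 intronic sites of E2F3 that have all 4 symbols, and below them at the intronic site of E2F2 farthest from its first base.

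E2F2 encodes another activator E2F, which is also known for its role in the cell cycle exit of maturing red cells. The gene (ENSG00000007968.7_8, chromosome 1, 23832930 to 23857725, minus strand) had 10 regions, and all 4 libraries called 8 of them. Of these 8, 2 had a higher mean rank with SCF (10399 of 22398 over all regions), and the 1 that met the criterion was a rank loss. The site, an intronic region at 5.1 kb (23840510 to 23840983), had ranks of 60.1 and 59.0 with PBS and 33.8 and 27.6 with SCF. Its pileups were 20 and 27 with PBS and 11 and 9 with SCF, or 0.571 and 0.574 times the library median with PBS and 0.333 and 0.273 times with SCF. Ranks and pileups were lower in both SCF libraries, with a log2 difference in fold enrichment of −0.59 ± 0.16 (SE, limma adjusted p = 0.705). The loss held with ranks of −log10 p and of pileup, where the groups lay 26.0 and 26.4 points apart, but not with a −log10 q of at least 5, where SCF replicate 2 had no call.

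The other E2F2 introns did not separate the treatments in the same way. The site at 2.7 kb (23854594 to 23855331) had ranks of 39.4 and 48.0 with PBS and 15.1 and 38.3 with SCF. Both SCF ranks were lower, by 1.04 points for the nearest pair, and the SCF replicates differed from each other by 23.2 points. The site at −5.6 kb (23851259 to 23851818), upstream of the internal start site, had overlapping ranks of 48.7 and 44.7 with PBS and 38.9 and 48.0 with SCF. The E2F2 promoter (23857008 to 23858170), which carries the E2F word printed above, had ranks of 34.1 and 55.5 with PBS and 42.2 and 46.4 with SCF, so that the difference between treatments, −0.503 points, was far below the 21.3 points between the PBS replicates. E2F words lay in 1 of the 20 own promoters (5%), against 1.86% of all promoter regions. Outside the gene, the highest site away from promoters, 8.7 kb upstream, had ranks of 62.0 and 78.3 with PBS and 53.0 and 68.4 with SCF, which overlapped. The other sites between genes ranked 45.7 or lower. The promoters of the neighbours ASAP3 (91.4 to 98.1) and ID3 (47.9 to 62.3) had overlapping ranks in the treatments.

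CCND3 encodes cyclin D3 and had the most regions of the 10 genes, 18, and all 4 libraries called 14 of them (ENSG00000112576.13_13, chromosome 6, 41902672 to 42018095, minus strand). It has 18 annotated start sites, spread along a gene of 115.4 kb. One intronic region was a rank gain, at 38.0 kb (41977843 to 41978551). Its ranks were 1.56 and 15.7 with PBS and 40.1 and 47.3 with SCF, the largest difference of the 51 regions at 35.1 points. The PBS libraries were near the bottom of their lists there and the SCF libraries near the middle. The pileups were low, at 6 and 13 with PBS and 15 and 14 with SCF, and the 95% Poisson interval for the lowest of them, 2.20 to 13.1, overlapped that of 15 fragments, 8.40 to 24.7. The log2 difference was 0.83 ± 0.18 (SE, limma adjusted p = 0.705). The site was not called in all 4 libraries, and the gain was lost, when only peaks with a −log10 q of at least 5 or lists of equal length were used, since the −log10 q in PBS replicate 1 was 1.32.

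The strongest intronic site of the 10 genes lay at 31.2 kb in CCND3 (41984446 to 41985413). It ranked 96.1 and 98.1 with PBS and 97.3 and 99.0 with SCF, with pileups of 97 to 152, and carries the adjoining GATA and AP-1 words printed above. It was thus among the most accessible sites of each library in both treatments. The intronic site at −15.5 kb (41924531 to 41925394) ranked 70.2 and 69.2 with PBS and 78.2 and 90.9 with SCF, higher in both SCF libraries but with a gap of 8.05 points. At 19.95 kb the ranks were 64.3 and 56.5 with PBS and 46.8 and 66.5 with SCF, and they overlapped. The sites at 2.7 and 4.3 kb ranked at most 11.4 in any library, on a local background of 2.69 to 5.11 times the library median, and 1 more site at 8.9 kb was called in PBS replicate 2 alone.

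The promoters of CCND3 ranged from the top to the bottom of the lists. The region at the upstream start sites (42017996 to 42018751), shared with the divergent gene TAF8, ranked 95.6 and 95.5 with PBS and 91.6 and 93.7 with SCF, with pileups of 180 to 330 fragments. Both SCF ranks were lower, by 1.86 points for the nearest pair, and the mean difference was −2.93 points. The region at an internal promoter (41908896 to 41910071) ranked 54.4 and 52.7 with PBS and 57.3 and 47.4 with SCF. The 2 remaining promoter regions, called in 3 and 2 libraries, ranked at most 1.87. Their pileups where called were 33 to 52 fragments, on a local background of 4.11 to 5.05 times the library median. Around the gene, the promoters of USP49 (98.7 to 99.2) and of BYSL and MED20 (98.0 to 98.9) were among the highest of all lists, and the site in C6orf132 at −41.9 kb ranked 60.0 and 61.9 with PBS and 69.4 and 71.2 with SCF, higher in both SCF libraries by 7.52 points. A site within MED20 (41882908 to 41883413) had the widest spread between replicates of all 51 regions, 32.6 points with SCF, with ranks of 6.81 and 21.4 with PBS and 53.0 and 20.3 with SCF. Of the remaining regions, an exonic site ranked 45.8 and 42.4 with PBS and 41.8 and 64.4 with SCF, the promoter of the non-coding gene ENSG00000223946 ranked 39.2 to 46.8, and a site within TAF8 was called in SCF replicate 1 alone.

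CCND1 and CCND2, which encode cyclins D1 and D2, had no intronic region and no rank gain or loss. At CCND1 (ENSG00000110092.4_6, chromosome 11, 69455924 to 69469242, plus strand), the region at the first start site ranked 2.09 and 10.9 with PBS and 2.46 and 13.6 with SCF. Its pileups of 36, 53, 37 and 44 fragments were above the library medians, on a local background of 2.91 to 3.48 times the median. The next region, at an internal start site (69457621 to 69458458), ranked 25.9 and 34.1 with PBS and 21.0 and 20.5 with SCF. Both SCF ranks were lower there, by 4.81 points for the nearest pair. Another promoter region ranked 19.96 in PBS replicate 1 and 5.72 and 3.55 in the SCF libraries, and was not called in PBS replicate 2. Of the sites between genes, that at −2.0 kb ranked 31.5 and 9.31 with PBS and 23.4 and 4.60 with SCF, with the replicates farther apart than the treatments, that at −4.4 kb ranked 0.542 and 21.4 with PBS and 11.3 and 21.0 with SCF, and the strongest was at 38.1 kb (34.3 in PBS replicate 2, 27.3 and 22.7 with SCF, not called in PBS replicate 1). The promoter of the neighbour LTO1 ranked 79.5 to 94.7 with overlapping treatments.

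CCND2 (ENSG00000118971.9_12, chromosome 12, 4378937 to 4414519, plus strand) had a strong promoter region (4380886 to 4382229), with ranks of 52.4 and 58.8 with PBS and 64.5 and 61.2 with SCF. Both SCF ranks were higher, by 2.36 points for the nearest pair, and the pileups were 73 and 117 with PBS and 92 and 92 with SCF. The mean difference of 7.21 points had a limma adjusted p of 0.878. Another promoter region was called in SCF replicate 1 alone, near the bottom of its list (rank 0.478), and the promoter of the neighbour TIGAR ranked 87.6 to 94.8 with overlapping treatments. Of the D-type cyclin genes, CCND3 (115.4 kb) had 7 regions in its introns, and CCND2 (35.58 kb) and CCND1 (13.32 kb) had 0.

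**Figure D4:**
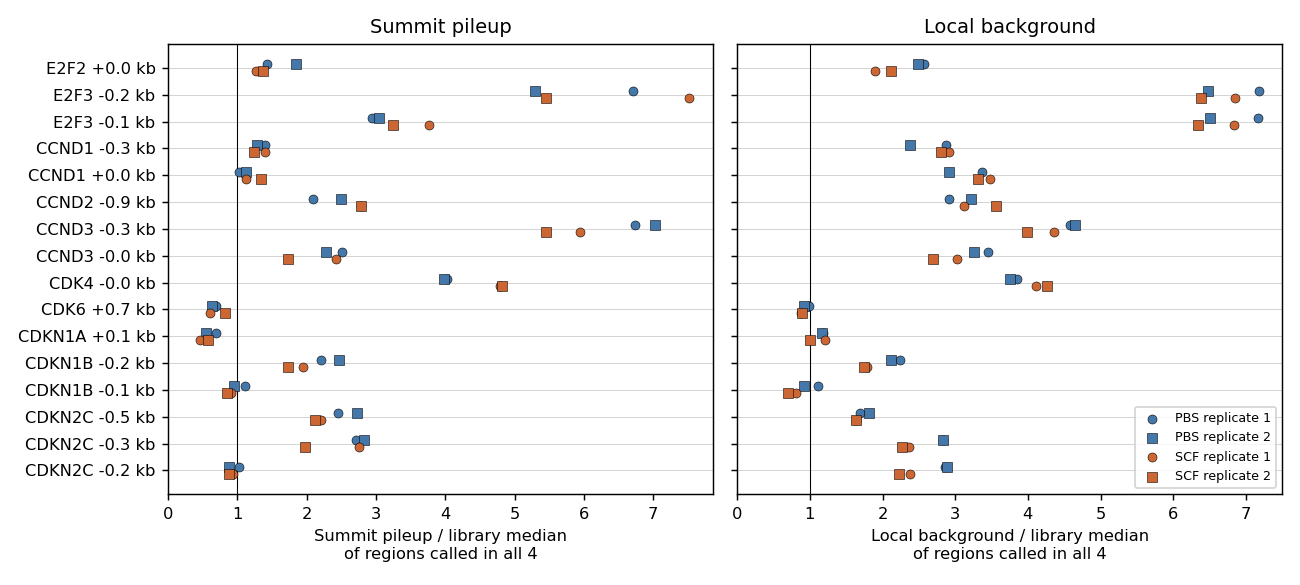
Summit pileup (left) and local background (right) of the 16 own promoters called in all 4 libraries, each divided by the median of that library over regions called in all 4, on linear axes. Blue marks PBS, orange SCF, circles replicate 1 and squares replicate 2, and the vertical line marks the median. The E2F3 promoters have the highest background, 6.34 to 7.18 times the median, and the CDK6 and CDKN1A promoters have pileups below it.

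The kinase genes had 1 own promoter region each and differed in the regions of their neighbours, with 5 regions in all at CDK4 and 2 at CDK6. The CDK4 promoter (58145439 to 58146614, chromosome 12, in ENSG00000135446.17_14, minus strand) ranked 77.0 and 77.1 with PBS and 82.7 and 84.4 with SCF. Replicates lay within 1.68 points and both SCF ranks were higher, by 5.65 points for the nearest pair, with a log2 difference of 0.17 ± 0.14 (SE, limma adjusted p = 0.884). The locus is dense in genes, and its other 4 regions were promoters of neighbours, TSPAN31 (80.7 to 89.5), CYP27B1 (35.3 to 61.8) and TSFM (60.8 to 80.9), with overlapping treatments, and a region shared by EEF1AKMT3 and METTL1. The last ranked 92.7 and 93.7 with PBS and 85.7 and 81.8 with SCF, opposite in direction to the CDK4 promoter. CDK6 (ENSG00000105810.10_7, chromosome 7, 92234235 to 92465887, minus strand) is the longest of the genes at 231.7 kb, yet had 0 regions in its introns. Its promoter (92462232 to 92463546) ranked 40.1 and 44.2 with PBS and 34.8 and 58.6 with SCF, so that the SCF replicates, 23.8 points apart, enclosed both PBS values. Pileups were 20 to 30 fragments. The only other region at CDK6 was the FAM133B promoter beyond its 3′ end, which ranked 85.1 and 85.9 with PBS and 89.8 and 95.7 with SCF, higher in both SCF libraries by 3.93 points.

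The inhibitor genes had open promoters with no rank gain or loss, and 1 intronic rank loss in CDKN1B. CDKN1B encodes an inhibitor of CDK2 complexes that is removed when cells are driven into the cycle (ENSG00000111276.12_10, chromosome 12, 12838432 to 12875303, plus strand). The intronic site at 7.6 kb (12857386 to 12858034) ranked 47.2 and 38.0 with PBS and 24.5 and 7.92 with SCF. The groups lay 13.5 points apart. The pileups of 13 and 13 with PBS and 9 and 6 with SCF were low, with 95% Poisson intervals of 6.92 to 22.2 and 2.20 to 13.1 for the highest and lowest. Divided by the library median, the pileups were 0.371 and 0.277 with PBS and 0.273 and 0.182 with SCF. PBS replicate 2 and SCF replicate 1 were thus nearly equal on this scale. The log2 difference was −0.52 ± 0.21 (SE, limma adjusted p = 0.720). The loss was not found with a −log10 q of at least 5 or with lists of equal length, where the site was not called in all 4 libraries. This site lies in an intron of a longer annotated transcript, upstream of the main promoter.

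The 2 promoters of CDKN1B did not follow the intronic site. The main promoter (12869519 to 12870794) ranked 70.4 and 80.4 with PBS and 73.0 and 71.0 with SCF. The upstream promoter (12848805 to 12850049), shared with GPR19, ranked 64.7 and 67.5 with PBS and 64.6 and 70.7 with SCF. The values overlapped at both. Downstream, the APOLD1 promoter ranked 74.1 and 69.4 with PBS and 65.1 and 64.5 with SCF, lower in both SCF libraries, and a site in APOLD1 at 40.0 kb ranked 18.2 and 17.2 with PBS and 18.9 and 34.0 with SCF, higher in both. Of the 4 other regions, 2 were called in 3 libraries and 2 in 1, with ranks of at most 39.4.

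CDKN1A encodes an inhibitor of cyclin-dependent kinases and had only 2 regions (ENSG00000124762.14_6, chromosome 6, 36644237 to 36655114, plus strand). Its promoter (36646182 to 36647427) ranked 31.1 and 18.6 with PBS and 3.16 and 28.7 with SCF, and its pileups were 15 to 26 fragments. The SCF replicates differed by 25.6 points, more than the treatment means did (−8.91 points). The exonic region downstream (36648091 to 36648600), which held an AP-1 and an EGR word, was called in 3 libraries with ranks of 10.6 in PBS replicate 2 and 20.7 and 19.3 with SCF.

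CDKN2C encodes an inhibitor that binds CDK4 and CDK6 directly (ENSG00000123080.12_8, chromosome 1, 51426417 to 51440306, plus strand). Its upstream promoter (51425074 to 51426426), shared with FAF1, ranked 91.3 and 92.7 with PBS and 85.5 and 86.5 with SCF. Both SCF ranks were lower, by 4.83 points for the nearest pair, and the mean difference of −6.01 points had a limma adjusted p of 0.886. The middle promoter region (51433778 to 51435060) ranked 70.3 and 72.7 with PBS and 79.7 and 65.2 with SCF, which overlapped. The last, at 51435333 to 51436052, ranked 6.19 and 2.04 with PBS and 7.88 and 11.5 with SCF, higher in both SCF libraries by 1.69 points. The site 7.6 kb downstream of the nearest start (51442405 to 51444945) ranked 41.0 and 35.1 with PBS and 27.6 and 29.2 with SCF, lower in both by 5.89 points. Another site, at 15.1 kb, was called in SCF replicate 2 alone.

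At the other listed genes of the G1 to S transition, 77 regions were called in all 4 libraries. Of these 77, 0 were rank gains and 1 (1.3%) was a rank loss, where 2.55% and 3.04% of all 22398 such regions were. The list held 21 genes, among them further E2F genes, their partners TFDP1 and TFDP2, the retinoblastoma family and the cyclin E genes. They had 131 regions in all, the 77 included. The rank loss among these lay between genes 10.5 kb from TFDP1 (73.3 and 76.5 with PBS, 41.7 and 56.1 with SCF). Of their 25 own promoters, 22 were called in all 4 and 0 were gains or losses. Only 2 of their 13 intronic sites were called in all 4 libraries, so introns could hardly be compared between the lists. Regions with calls in both replicates of a treatment and in neither of the other were 1 for SCF, near CCNE2, and 2 for PBS, near CCNE1 and in CDKN2A (1.65% and 2.37% of all regions). CDKN2B has no region of its own in these counts because its sites were counted under its neighbour CDKN2A.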

How the data were processed

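ATAC-seq peak lists of 4 sgControl libraries, 2 with PBS and 2 with SCF, were analysed. According to the methods and processing notes, the authors sequenced paired ends of 75 bp, used bcl2fastq, Bowtie2 and SAMtools within the ENCODE ATAC-seq pipeline, and mapped to hg38. The header of each deposited list names hg19, so coordinates were read as GRCh37. On its 24 chromosomes no peak ended past the reference, a check of length that does not by itself settle the build. Some regions lay on other sequences, and words were counted over the 43569 regions on the 24 chromosomes. Peaks were called library by library, and the caller is not given in the sources used here.

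The score column deposited by the authors was not used. The fold enrichment in the deposited lists is a ratio, whose values fitted the summit pileup plus 1 over the local background plus 1. The authors also deposited a −log10 p-value and a −log10 q-value for each peak, and the highest q-value was 0.0497. Read totals are unknown. Whole-number pileups that give the deposited fold enrichment and −log10 p, with a tolerance of 0.0001, were recovered for 100% of the peaks. The relative depth of the libraries is an estimate. It came from the lowest background of each list divided by the width of its narrowest peak, set relative to PBS replicate 1.

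Peaks sharing at least 1 bp were merged into 43654 regions, and a region took the value of its highest-ranked peak in each library. Genes were taken from GENCODE release 44 lifted to GRCh37. Regions called in all 4 libraries were compared with limma 3.58.1 (R 4.3.3) on quantile-normalized log2 fold enrichment, with Benjamini-Hochberg adjustment over 22398 regions and a threshold of 0.05. The fit was tested on simulated data. Named were all own promoters, regions with a rank gain or loss, the strongest site in the introns and outside each gene, and the 3 widest replicate spreads. Sites named beyond this rule were chosen after their values were seen. The members and lists were chosen with earlier results of these data known. The labels call the samples replicates without naming separate cultures, whereas the methods speak of biological duplicates, so p-values measure the spread between these libraries. Alternatives are given in the closing section. Results for some marker genes are not reported here.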

Additional observations from a re-analysis of the deposited data

How the results depend on the processing

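Of the counts and medians, 51 values under alternatives stayed close to the reported ones and 21 moved. Those that stayed include the limma count of 0 called regions under each of its alternatives, described below. Both medians crossed 0 within the replicate spread, from −0.666 to 1.21 points for promoters and, apart from the 3 kb limit, −0.837 to 3.48 for introns. With a −log10 q of at least 5, 1 region each was called with SCF alone and with PBS alone, and there were 3 rank gains and 0 rank losses. Of the 6 sites, only those of E2F3 at 6.2 and 54.7 kb were then called in all 4 libraries, so the gains included a site outside the 6. Ranks of −log10 p gave 3 gains and 3 losses, and the losses included a site outside the 6. With lists shortened to 29269 peaks each, 3 rank gains and 1 rank loss were left, without the sites of CCND3 and CDKN1B. With pileup ranks, 2 rank gains were left, since the E2F3 sites at 6.2 and 54.7 kb did not meet the gap. A gap of 5 points gave 8 gains and 4 losses, and one of 20 points gave 2 and 1. A promoter limit of 3 kb moved the intronic median to 14.9 points. Leaving out 1 library gave 2 to 4 regions called with SCF alone, 0 to 3 with PBS alone, 5 to 8 gains and 3 to 4 losses. SCF-alone calls were highest without PBS replicate 2, PBS-alone calls without PBS replicate 1, and gains without SCF replicate 1. One library in an arm makes these conditions easier to meet for every region. The shares of all regions under these alternatives are not given here.

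The limma fit called 0 regions under every alternative, including each library left out, where the lone library was assumed to vary like the others. With the replicate number as a block it also called 0 (1528 regions at an unadjusted p under 0.05, 6 of them at the 10 genes). Same-numbered libraries did not deviate together (r = 0.0121 over 22398 regions), so the numbers were not taken as pairing. The peak names inside the lists carry other replicate numbers than the labels, by which only PBS replicate 1 and SCF replicate 2 share one, so the r and the block hold for the labels' numbers. Regions not called in all libraries under a stricter setting had no value there. Low depth limits weak intronic sites, and 5 of the 6 with a rank gain or loss rested on pileups of under 30 fragments in every library.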
